A study of Mus musculus with 3 samples.

Results

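Glycolysis and glucose uptake were followed through 10 listed genes: Slc2a1, Slc2a3, Hk2, Pfkl, Pfkp, Pgk1, Eno1, Ldha, Pdk1 and Ndrg1. Their probe sets, each a set of short probes for 1 transcript, were taken where the array annotation assigns the probe set to that gene alone. This gave 27 of the 45037 probe sets and 9 of the 10 genes, out of 18193 genes with a probe set of their own, and 26 of the 27 passed the filter on dim probe sets, a mean signal of at least 55.9. No probe set was found for Eno1 by this rule, so Eno1, which encodes an enolase, was not analysed here. The cells were mouse embryonic stem (ES) cells, pluripotent cells from the early embryo, in which Pou5f1, encoding the transcription factor Oct3/4, can be deleted conditionally. The design asks how expression responds to the absence of Oct3/4, with total RNA on 1 Affymetrix array each for day 0, day 1 and day 2. All 3 groups carried the conditional allele. The sources used here do not say how deletion was induced, which part of the gene it removes, whether the cells were 1 clone, or whether feeder cells were used. Day 1 and day 2 have no undeleted counterpart, so the loss of Oct3/4 and time in culture cannot be told apart.

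Glycolysis breaks glucose down to pyruvate in the cytosol. Facilitative transporters of the Slc2a family bring glucose into the cell, hexokinase traps it by phosphorylation, phosphofructokinase makes the committed step, and lactate dehydrogenase converts pyruvate to lactate. Pyruvate dehydrogenase kinases inhibit the enzyme complex that passes pyruvate to the mitochondria. Pluripotent ES cells are known for a high rate of glycolysis, and many of these genes are also known targets of hypoxia-inducible factor (HIF), as is Ndrg1, a stress- and differentiation-responsive gene that encodes no glycolytic enzyme.

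The genes did not move as a block. At day 2 the signals of both glucose transporter genes and of Ndrg1 were higher than at day 0, those of Hk2, Pfkp, Ldha and Pdk1 were lower, and Pgk1 was close to its day 0 value. The largest differences were in Pdk1 (6.03-fold lower), Ndrg1 (5.87-fold higher) and Pfkp (3.88-fold lower). Folds and differences are on the scale of log2(signal + 55.9), which understates the change of dim genes, and unless stated otherwise each gene is represented by its probe set with the highest mean signal. A replicate error, and with it any test, is missing with 1 array per day. Probe sets of the same gene can be compared with each other, and their differences had a pooled SD, over 5906 genes, of 0.34 at day 2 and 0.30 at day 1, both from day 0, and of 0.30 in the step between these days. This SD holds no variation between cultures or arrays.

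By the size rule of at least 2-fold at day 2, 1 of the 9 genes was higher, Ndrg1, where 5.25% of all 12717 measured genes were. Likewise 2 of 9 were lower, Pfkp and Pdk1, where 5.65% of all genes were. At a limit of 1.5-fold, 3 of 9 were higher (14.6% of all genes) and 4 of 9 lower (11.8%). The 3 were Slc2a1, Slc2a3 and Ndrg1, with Slc2a1 just at the limit, and the 4 were Hk2, Pfkp, Ldha and Pdk1. With arrays scaled to equal ribosomal protein medians, Slc2a1 (0.44) and Slc2a3 (0.51) were below the limit, which is 0.58 in log2. At day 1, 0 of the 9 genes passed 2-fold in either direction, where 2.4% of all genes were higher and 2.59% lower. At 1.5-fold Hk2 was the 1 gene of 9 that was lower at day 1 (7.29% of all genes), and 0 were higher (9.62%). These day 1 counts depend on the probe set: 2 of 3 of Slc2a1 and 3 of 4 of Slc2a3 were past 1.5-fold higher, with means of 0.66 and 0.83. In the other direction, 1 of 3 each of Pfkp and Pgk1 was past it. Over the alternative settings of processing, Ldha and Pdk1 reached −0.66 and −0.64 at day 1, also past the limit. Between day 1 and day 2 the genes at least 2-fold apart were Ndrg1 as the 1 higher (2.09%) and Pfkp and Pdk1 as the 2 lower (2.65%). The median of the 9 differences was −0.36 at day 2, against 0.05 for all genes, and −0.35 at day 1, against 0.04. The suffixes _x_at, _s_at and _a_at mark probes that can match several transcripts. With only probe sets that lack them, the medians were 0.12 and 0.06. Ldha then has no value and Pfkl is represented by its dimmest probe set, so the genes and probe sets behind the medians differ. No common direction of the genes can be read from these medians.

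**Figure D1:**
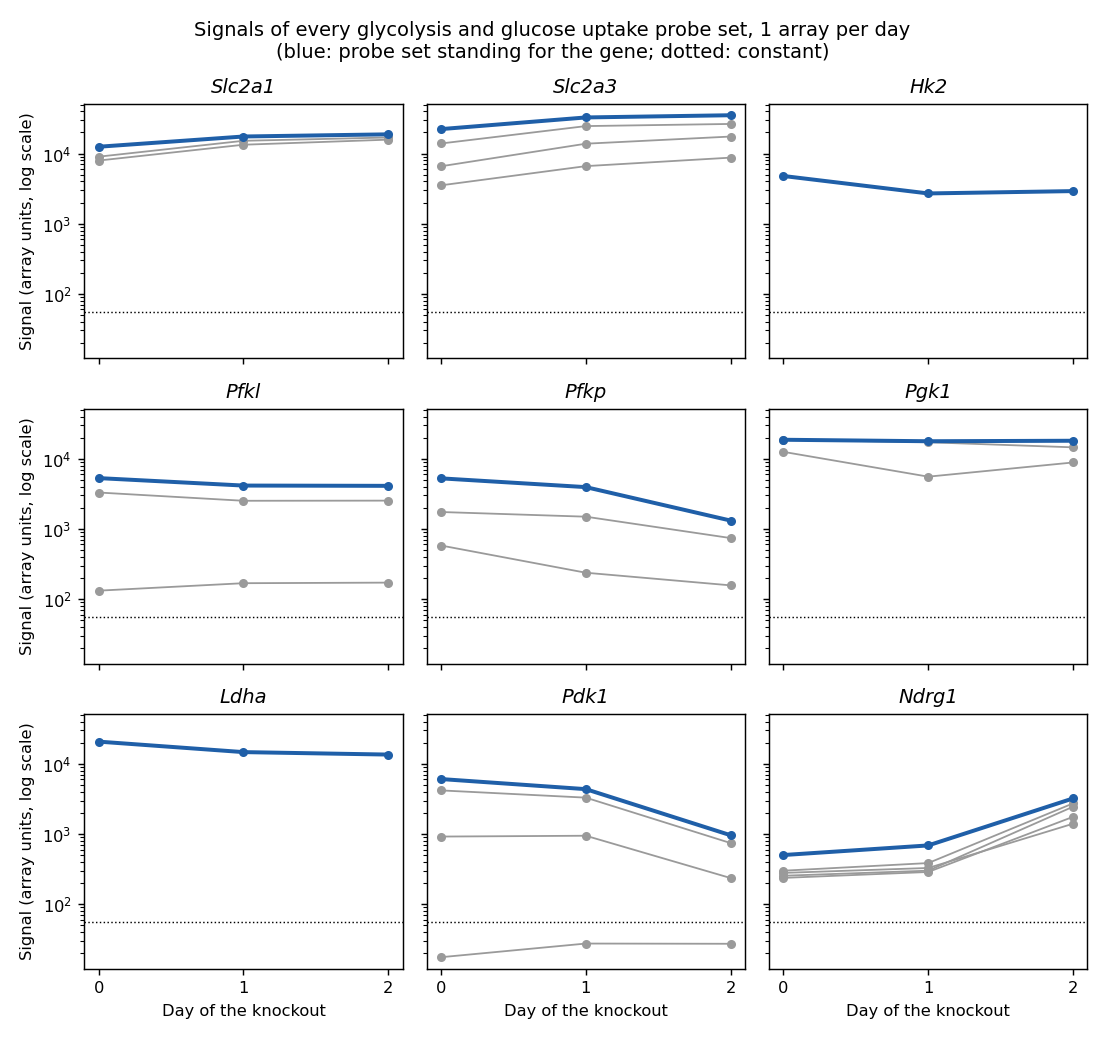
Signal (array units, log scale) of every probe set of the 9 measured genes at day 0, day 1 and day 2, with 1 array per day and no error bars; the blue line is the probe set standing for the gene, grey lines are its others, and the dotted line is the added constant of 55.9. Slc2a1 and Slc2a3 lines go up, all 3 lines of Pfkp and the 3 upper lines of Pdk1 go down, and the 5 lines of Ndrg1 turn up between day 1 and day 2.

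Pou5f1 signals, from 1 probe set, were 2400, 40.8 and 15.5 over the days, which goes with the labels; whether that probe set lies in the deleted part is not known. The ES cell markers Nanog (signal 14073 at day 0) and Sox2 (12563) were present at day 0. At day 2, 10 of 10 pluripotency markers were at least 2-fold lower, where 5.65% of all genes were. The 10 include Pou5f1, the gene deleted by design, which is no independent marker. The summed signal of the 10 went from 123271 to 74581 and 25620 over the days. All 10 trophectoderm markers, for the placental lineage, were at least 2-fold higher at day 2 (5.25% of all genes). Their summed signals were 10788, 15726 and 61647. The marker lists were chosen with earlier results of these data known, so these counts describe the lists and are no test of cell type. Of 10 fibroblast markers 6 were dim, below the constant on average, and these included Col1a1 and Col3a1, while the summed signals of the other 4 were 1468, 1776 and 1445, mostly from Fbln1 (911, 1255 and 1105). Among these 4, Thy1 went from 400 to 89.3 and Pdgfrb from 60.8 to 123 between day 0 and day 2. Of 10 primitive endoderm markers 2 were dim, and the summed signals of the other 8 were 2898, 5760 and 7766. Of these 8, 4 were at least 2-fold higher at day 2 (5.25% of all genes) and 1, Lama1, lower (5.65%), from 709 to 186. Of the 4, Dab2 at 1.33 depended on the probe set, with a mean over its probe sets of 0.76. Col4a1 (4072) and Col4a2 (2245) made up most of the day 2 sum, while Gata4 and Sox17 had differences of −0.43 and −0.27. No marker that passed the filter on dim probe sets was at 0. The part of these shifts in cell type in the values below was not tested. In bulk RNA, fewer cells of a type and less RNA per cell cannot be told apart.

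Slc2a3 encodes GLUT3, a high-affinity glucose transporter. Its probe set with the highest signal read 22344 at day 0, 32759 at day 1 and 35221 at day 2, a difference of 0.55 at day 1 and 0.66 at day 2. All 4 of its probe sets were lowest at day 0 and highest at day 2. The probe set at 13929, 24658 and 26465 gave 0.92 at day 2, the one at 6594, 13832 and 17495 gave 1.40, and the one at 3526, 6624 and 8752 gave 1.30. At day 2, 2 of the 4 therefore passed 2-fold. The probe set that stands for the gene gave the smallest difference of the 4, and the mean over the 4 was 1.07 ± 0.34 (SD between probe sets), past 2-fold. At day 1 the 4 differences ran from 0.55 to 1.06.

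Slc2a1 encodes GLUT1, the widespread basal glucose transporter. Its 3 probe sets read 12519, 17522 and 18812, then 9035, 15218 and 16959, and then 7958, 13374 and 15802 at day 0, day 1 and day 2. All 3 were lowest at day 0 and highest at day 2, with differences of 0.59, 0.90 and 0.98 at day 2 and 0.48, 0.75 and 0.74 at day 1. None of the 3 reached 2-fold. For both transporter genes most of the difference was already there at day 1: from day 1 to day 2 the differences were 0.10 to 0.24 for Slc2a1 and 0.10 to 0.40 for Slc2a3.

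Hk2 encodes hexokinase 2, an inducible hexokinase that binds the outer mitochondrial membrane. A single probe set read 4791 at day 0, 2701 at day 1 and 2917 at day 2. The signal was 1.76-fold lower at day 1 (difference −0.81) and 1.63-fold lower at day 2 (−0.71), so day 1 and day 2 were closer to each other than either was to day 0. Ldha encodes the A subunit of lactate dehydrogenase, the form that favours lactate production. It too had 1 probe set, at 20759, 14715 and 13570, which gave −0.49 at day 1 and −0.61 at day 2, the latter 1.53-fold lower. With 1 probe set each, these genes have no spread of their own. Their differences exceed the pooled SD between probe sets, which does not contain array error.

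Phosphofructokinase is a tetramer of liver (Pfkl), muscle (Pfkm) and platelet (Pfkp) type subunits, and the genes of the first and last differed. Pfkp read 5249 at day 0, 3938 at day 1 and 1313 at day 2, which is −0.41 at day 1 and −1.95 at day 2. Its other probe sets, at 1739, 1491 and 739 and at 579, 237 and 156, gave −1.17 and −1.58 at day 2. All 3 were thus highest at day 0, lowest at day 2 and at least 2-fold lower by then, with a mean of −1.57 ± 0.39 (SD between probe sets). They disagreed on the timing: the 2 brighter ones gave −0.41 and −0.21 at day 1, the dimmest −1.12, and the late step was −1.55, −0.96 and −0.46.

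Pfkl read 5292, 4143 and 4105, differences of −0.35 and −0.36. A further probe set, at 3297, 2514 and 2526, gave −0.38 at both days, and the dimmest, at 131, 168 and 171, gave 0.26 and 0.28 with the opposite sign. Both brighter probe sets were highest at day 0 and level between day 1 and day 2. No probe set of Pfkl passed 1.5-fold.

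Pgk1 encodes phosphoglycerate kinase, the first ATP-producing step of the pathway, and its probe sets did not give the same picture. The probe set that stands for the gene read 18643, 17758 and 18046, a difference of −0.07 at day 1 and −0.05 at day 2. Another, at 18667, 17173 and 14539, gave −0.12 and −0.36. The third read 12532, 5549 and 8840, which is −1.17 at day 1 and −0.50 at day 2. All 3 lay below 0 at both days, but only 1 of them passed 2-fold, and only at day 1.

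Pdk1 encodes pyruvate dehydrogenase kinase 1, which holds pyruvate back from mitochondrial oxidation. It read 6075 at day 0, 4362 at day 1 and 960 at day 2. The difference was −0.47 at day 1 and −2.59 at day 2, and only 0.566% of all measured genes had a lower day 2 difference. Its next probe sets, at 4185, 3299 and 743 and at 919, 944 and 235, gave −2.41 and −1.74 at day 2. The mean over these 3 was −2.25 ± 0.45 (SD between probe sets) at day 2 but −0.26 ± 0.26 at day 1, so nearly all of the difference lay between day 1 and day 2, at −2.12, −2.07 and −1.78. The remaining probe set, at 17.5, 27.4 and 27.2, was below the constant on all arrays and gave no usable difference.

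Ndrg1 was the member furthest above day 0. Its 5 probe sets read 501, 687 and 3212; 300, 385 and 2727; 254, 300 and 2447; 237, 287 and 1756; and 279, 328 and 1400 at day 0, day 1 and day 2. In all 5 the day 2 signal stood far above the other days, while day 0 and day 1 were close. The differences at day 2 ran from 2.12 to 3.01, with a mean of 2.66 ± 0.36 (SD between probe sets), and those at day 1 from 0.20 to 0.42. For the probe set that stands for the gene, 99.8% of all measured genes had a lower day 2 difference.

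**Figure D2:**
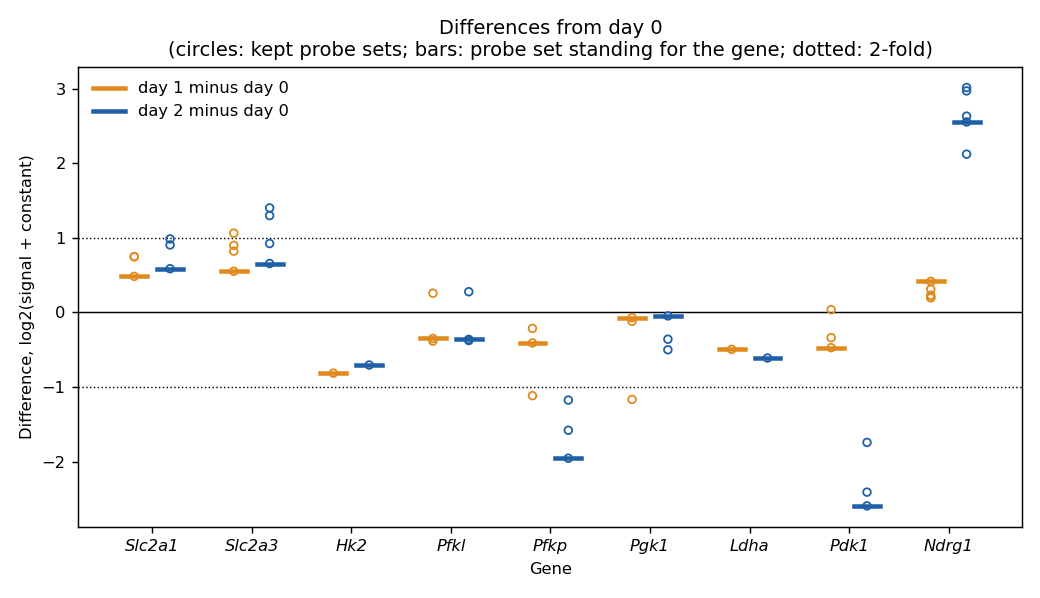
Difference from day 0 in log2(signal + constant) for the 9 measured genes, day 1 in orange and day 2 in blue; circles are the kept probe sets, bars the probe set standing for the gene, and dotted lines mark 2-fold. At day 2 all circles of Pfkp and Pdk1 lie below the lower line and all of Ndrg1 above the upper line, while the circles of Slc2a3 straddle it.

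The 9 genes therefore fell into different time courses, described here from values that share the day 1 array. Slc2a1, Slc2a3, Hk2 and Ldha had early differences of 0.48, 0.55, −0.81 and −0.49 and late ones, from day 1 to day 2, of 0.10, 0.10, 0.11 and −0.12. Pdk1, Pfkp and Ndrg1 had early differences of −0.47, −0.41 and 0.42 and late ones of −2.12, −1.55 and 2.14, the Pfkp value being −0.99 as a mean over its probe sets. The 10 pluripotency markers had a median of −0.99 early, with 5 at least 2-fold lower (2.59% of all genes). The 5 include Pou5f1, the gene deleted by design, and Esrrb, which was at −0.59 as a mean over its probe sets. As such a mean Utf1, not among the 5, was past 2-fold lower (−1.24). Late the median of the 10 was −1.55, with 9 lower (2.65%). Their timing varied, from Pou5f1 at −4.67 and −0.44 to Nanog at −0.09 and −1.52. The 10 trophectoderm markers had a median of 0.39 early, with 3 at least 2-fold higher (2.4% of all genes). Late it was 1.68, with 7 higher (2.09%). Cdx2 had 2.14 and −0.05 over these intervals, and Plac1 0.28 and 3.82. The part of cell type in the time courses of the 9 genes was not tested. The genes whose pair of differences from day 0 lay nearest to that of Pdk1, by Euclidean distance over the 3 arrays, were Epha4 (distance 0.10; signals 755, 533 and 87.8), Lrrc34 (0.17; 1348, 1063 and 191) and Apobec3 (0.17; 2213, 1554 and 278).

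**Figure D3:**
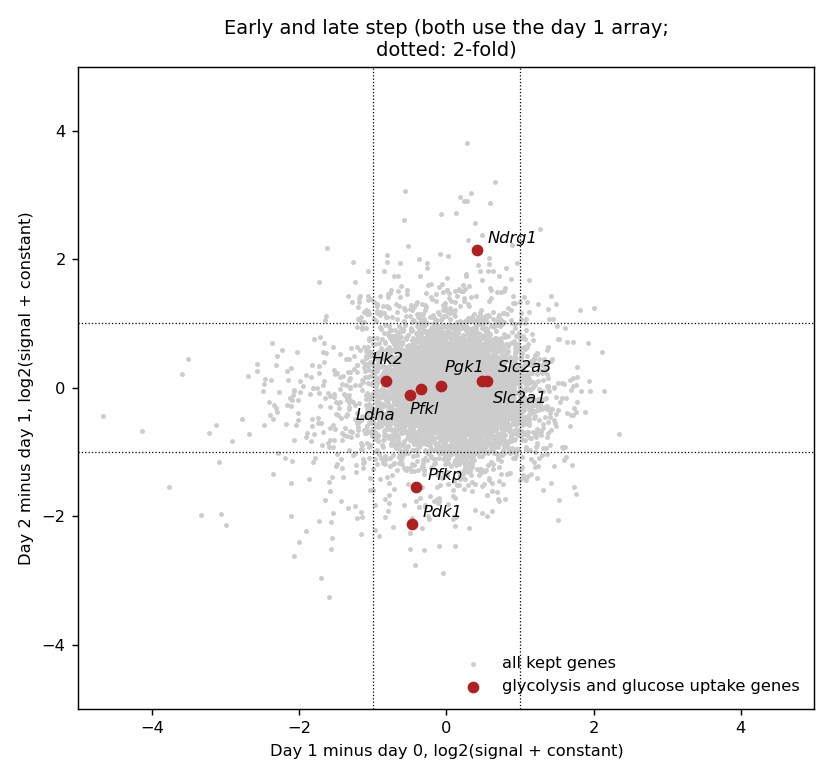
Difference of day 1 from day 0 (x) and of day 2 from day 1 (y) in log2(signal + constant); grey points are all 12717 measured genes, red points the 9 glycolysis and glucose uptake genes, and dotted lines mark 2-fold. Both axes use the day 1 array. Pdk1, Pfkp and Ndrg1 stand apart along y, at −2.12, −1.55 and 2.14, and the other 6 stay within 2-fold on both axes.

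Related genes for the same step often went another way. Among hexokinases, Hk1, the constitutive form, read 1711 at day 0, 4310 at day 1 and 2058 at day 2, so it was higher at day 1 (1.31) while Hk2 was lower (−0.81), and nearly back at day 2 (0.26). Both kept probe sets of Hk1 gave this shape, at 1.29 and 1.31 for day 1. Hk3 read 12.2, 68.1 and 92.8, which leaves its difference of 1.13 at day 2 dependent on the constant, and it was 0.72 with a constant of 112. Ldhb, the B subunit of lactate dehydrogenase, read 5067, 9370 and 5255, higher by 0.88 at day 1, with its 4 probe sets between 0.88 and 1.02, while Ldha was lower. Pfkm read 1038, 710 and 1100, differing by −0.51 at day 1 and 0.08 at day 2, where Pfkp was at −1.95.

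Of the 3 other kinases of pyruvate dehydrogenase, Pdk4 was at least 2-fold lower at day 2. Pdk4 read 280, 245 and 83.8 (−1.27), Pdk2 132, 146 and 51.3 (−0.81, with −1.01 and −0.58 under constants of 27.9 and 112), and Pdk3 686, 710 and 562 (−0.26). From day 1 to day 2 alone the differences were −1.10 in Pdk4, or −0.87 with a constant of 112, −0.91 in Pdk2 and −0.31 in Pdk3. The last was about as large as the pooled SD between probe sets for that step, 0.30. Among the subunits of the complex itself, Pdha1 (−0.50) and Pdhb (−0.62) were lower at day 2, and Dlat (−0.02) and Dld (0.25) were near or above 0. Of the 10 genes of this list, 1 was at least 2-fold lower at day 2 (5.65% of all genes) and 0 higher (5.25%). Their median was −0.25. Mpc1, which encodes a subunit of the mitochondrial pyruvate carrier, read 2272, 1631 and 1298 (−0.78).

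**Figure D4:**
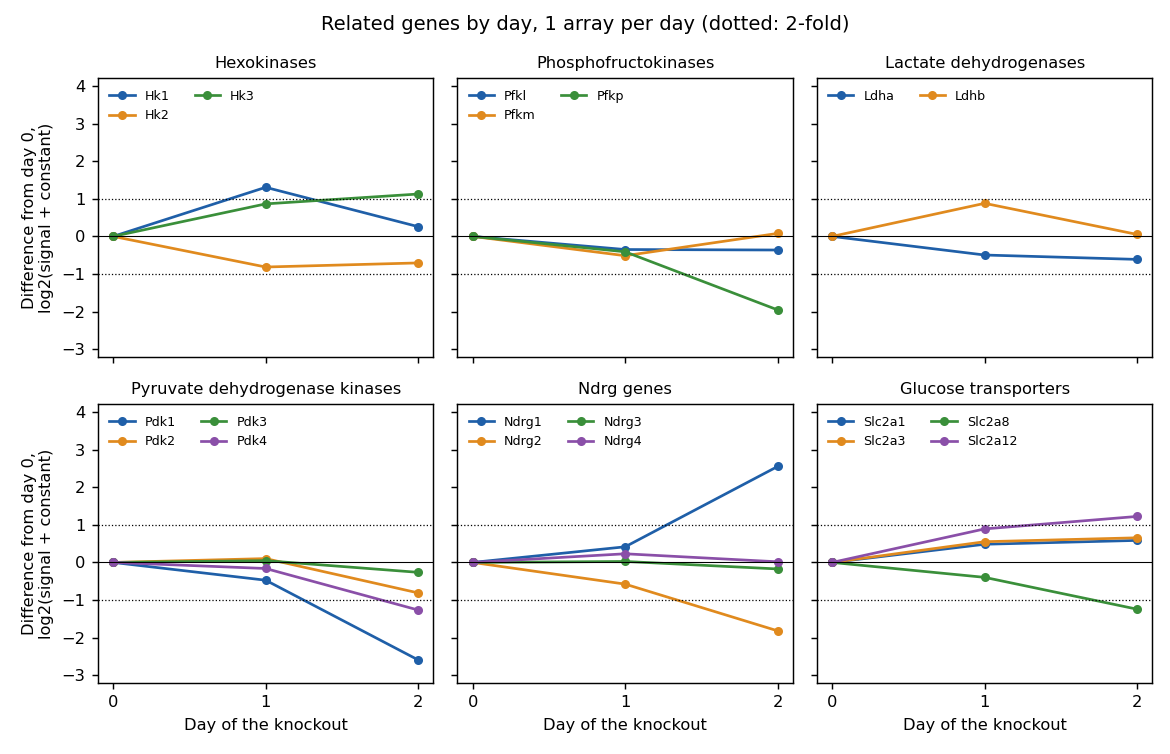
Difference from day 0 in log2(signal + constant) at each day, 1 array per day, for hexokinase, phosphofructokinase, lactate dehydrogenase, pyruvate dehydrogenase kinase, Ndrg and glucose transporter genes; dotted lines mark 2-fold. Hk1 and Ldhb peak at day 1 (1.31 and 0.88), opposite to Hk2 and Ldha, and all 4 Pdk genes lie below 0 at day 2.

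Of 13 other glycolysis enzymes measured, 3 were at least 2-fold higher at day 2, against 5.25% of all genes, and 1 was lower, against 5.65%. The median was 0.08, or −0.06 with arrays scaled to equal ribosomal protein medians, and 0.60 without the probe sets whose suffix marks probes that can match several transcripts. Leaving those out drops genes or changes the probe set that stands for them, with 11053 of all 12717 genes left. The 0.60 need not cover the same 13 enzymes. The enzymes Pkm (signals 23275, 23106 and 23033), Aldoa (14884, 14898 and 15268) and Pgam1 (15052, 14761 and 13133) had day 2 differences of −0.02, 0.04 and −0.20. Tpi1, triosephosphate isomerase, was at 0.41. The 1 lower gene was Eno3, the muscle enolase, at 961, 559 and 214 (−1.91). Besides Hk3, the higher ones were Pgam2 (46.2, 44.8 and 194; 1.29, and 0.95 with a constant of 112) and Pklr. Pklr, at 23.4, 200 and 193, gave 1.65, but the mean over its 3 probe sets was 0.29. Gapdh and Gpi1 had no probe set by the rule and were not analysed here.

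Among other glucose transporter genes, 5 of 9 were dim. Of the 4 measured, Slc2a12 (45.4, 132 and 181; 1.22, and 0.90 with a constant of 112) was higher and Slc2a8 (739, 548 and 280; −1.24) lower at day 2. Slc16a1, the lactate and pyruvate transporter MCT1, read 3889, 3061 and 6044 (0.63 at day 2), and Slc16a3, the lactate exporter MCT4, 791, 717 and 761 (−0.05). Of 4 regulators of phosphofructokinase 0 passed 2-fold, with Pfkfb4 (0.63) highest and Pfkfb2 (−0.54) lowest. Of 6 pentose phosphate pathway genes, which branch from glycolysis, 0 passed 2-fold, with Rpe (−0.62) furthest from 0 and Tkt at −0.02. Of 6 genes of gluconeogenesis, G6pc3 at 123, 406 and 415 (1.40) was higher and Pck2 at 1016, 461 and 302 (−1.58) lower. Among all genes 5.25% were at least 2-fold higher at day 2 and 5.65% lower.

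Ndrg1, Pdk1, Slc2a1, Pgk1 and Ldha are known HIF targets, so the HIF pathway and other hypoxia-induced genes were set beside them. Hif1a, which encodes the inducible subunit, read 3613, 4247 and 4505 (0.31 at day 2). Epas1, the gene of HIF-2α, was lower already at day 1, at 1862, 265 and 360 (−2.58 and −2.21), with its other probe set at −1.67 and −1.14. Of 8 HIF pathway genes 1, Epas1, was at least 2-fold lower at day 2 and 0 higher, where 5.65% and 5.25% of all genes were. Of 17 hypoxia-induced genes outside glycolysis, 1 was at least 2-fold higher at day 2, P4ha2 (240, 367 and 603; 1.16), and 2 were lower, the histone demethylase gene Kdm3a (6794, 2996 and 2091; −1.67) and Angptl4 (602, 344 and 194; −1.40). The median of the 17 was −0.07, against 0.05 for all genes, with Vegfa at −0.07, Bnip3 at 0.30, Ero1a at 0.74 and Stc2 at −0.73. The probe sets of Vegfa disagreed, with the other one at 0.59, and those of Stc2 ran from −1.54 to −0.73. Among all genes 5.25% were higher and 5.65% lower by this rule at day 2. No common direction of the hypoxia-induced genes can be read from these counts and this median. Nor did other genes of the Ndrg family follow Ndrg1: Ndrg2 read 313, 191 and 48.6 (−1.82), Ndrg3 was at −0.17 and Ndrg4 at 0.02.

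**Figure D5:**
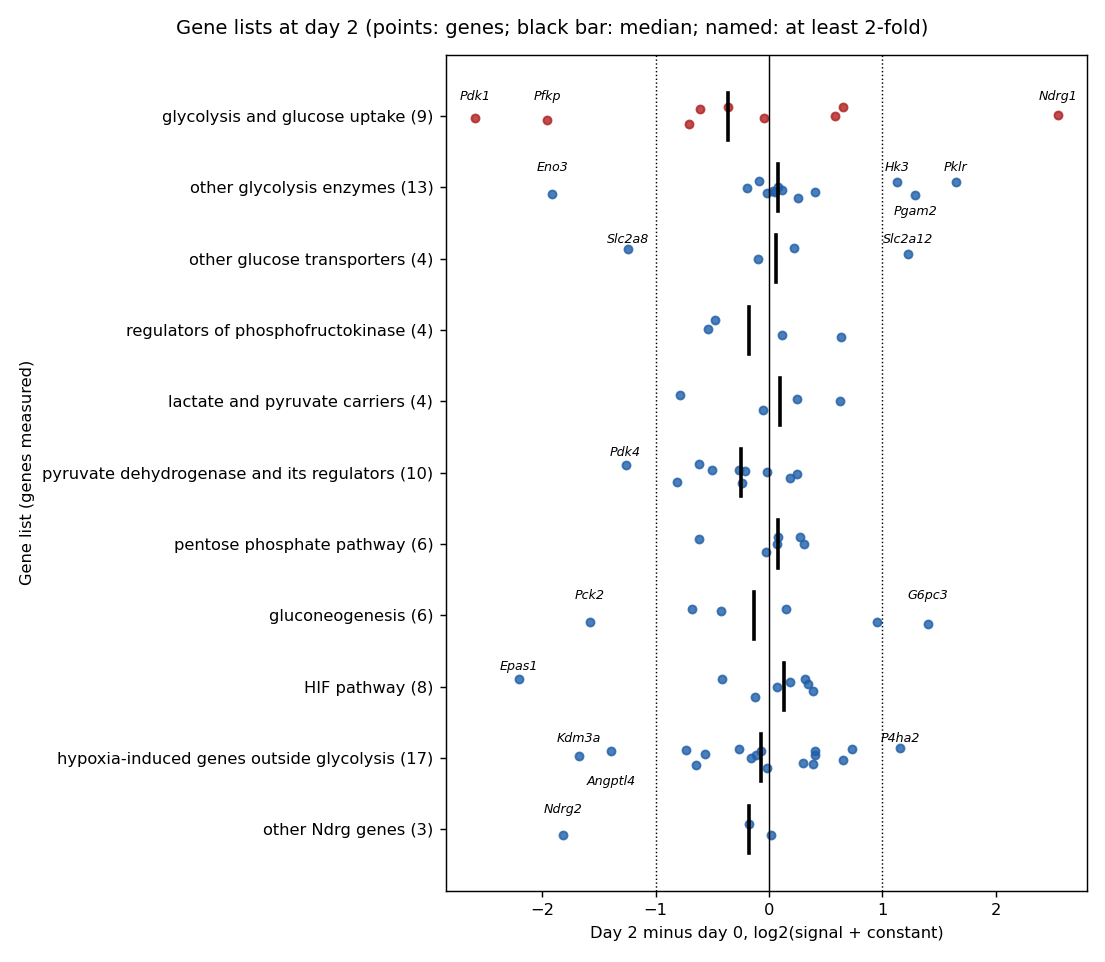
Difference of day 2 from day 0 in log2(signal + constant) for each measured gene (points) of the glycolysis and glucose uptake set (red) and of 10 related lists (blue); black bars are medians, dotted lines mark 2-fold, and genes past it are named. Medians lie between −0.36 and 0.13, and most lists hold genes on both sides of 0.

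Promoter sequences of 8 of the listed genes were available from RefSeq (assembly GRCm38.p6), and the 250 bases before the most upstream start were searched on both strands for the HIF core motif, ACGTG or GCGTG, the E-box CACGTG, which contains ACGTG on both strands and so counts as 2 core matches, and the POU octamer ATGCAAAT. Shown are Pdk1 and Pfkp, which were lower, Slc2a1, which was higher, and Pgk1 and Ldha, which are textbook HIF targets; matches are in capitals, and each sequence reads 5′ to 3′ on the gene's strand.
Pdk1 (chr2:71872974-71873223, plus strand): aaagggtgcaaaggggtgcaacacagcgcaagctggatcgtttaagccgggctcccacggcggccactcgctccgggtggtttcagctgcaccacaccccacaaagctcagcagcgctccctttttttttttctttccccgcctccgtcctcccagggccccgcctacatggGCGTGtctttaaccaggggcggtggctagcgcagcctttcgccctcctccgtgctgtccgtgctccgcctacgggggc
Pfkp (chr13:6648772-6649021, minus strand): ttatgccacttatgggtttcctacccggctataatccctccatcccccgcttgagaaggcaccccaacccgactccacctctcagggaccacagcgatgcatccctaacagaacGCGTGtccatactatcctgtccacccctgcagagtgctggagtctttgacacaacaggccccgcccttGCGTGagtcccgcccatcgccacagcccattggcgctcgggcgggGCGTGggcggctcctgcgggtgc
Slc2a1 (chr4:119108495-119108744, plus strand): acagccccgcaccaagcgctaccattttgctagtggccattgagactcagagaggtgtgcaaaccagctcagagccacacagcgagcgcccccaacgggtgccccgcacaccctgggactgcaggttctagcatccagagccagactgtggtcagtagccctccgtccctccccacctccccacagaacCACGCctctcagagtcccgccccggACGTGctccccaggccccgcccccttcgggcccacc
Pgk1 (chrX:106186850-106187099, plus strand): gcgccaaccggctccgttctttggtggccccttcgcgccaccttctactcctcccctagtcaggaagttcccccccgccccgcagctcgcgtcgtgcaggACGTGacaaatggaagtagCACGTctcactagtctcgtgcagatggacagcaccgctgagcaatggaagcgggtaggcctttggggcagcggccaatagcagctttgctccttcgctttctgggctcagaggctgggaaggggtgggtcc
Ldha (chr7:46845554-46845803, plus strand): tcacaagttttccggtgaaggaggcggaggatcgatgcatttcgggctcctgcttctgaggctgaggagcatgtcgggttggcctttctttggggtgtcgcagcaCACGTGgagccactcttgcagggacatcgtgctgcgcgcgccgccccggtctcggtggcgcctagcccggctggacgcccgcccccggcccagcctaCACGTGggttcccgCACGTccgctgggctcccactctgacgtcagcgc
A core match was found in all 8 promoters and in 38.6% of the 27025 promoters of the same length. Pdk1 held 1 match, Slc2a1 and Pgk1 2 each, Pfkp 3 and Ldha 5. Of all promoters, 16.8% held 2 or more, 6.73% held 3 or more and 1.01% held 5 or more. The 5 of Ldha come from 2 E-boxes and 1 further core, and E-boxes were found in 6.04% of all promoters. The octamer was in 0 of the 8 and in 1.62% of all promoters. The windows were also rich in G and C, with a GC content of 55.6% in Eno1, 59.2% in Pfkl, 69.6% in Hk2, 64% in Pdk1, 62.8% in Pfkp and Pgk1, 66.4% in Slc2a1 and 67.2% in Ldha against a median of 52% in all promoters, and the part of base composition in the share with a match was not tested. Because all 8 held a match, genes with and without one cannot be compared here. At day 2 Pdk1, Pfkp, Hk2 (−0.71) and Ldha (−0.61) were lower, Pfkl was at −0.36, and Eno1 has no value. Slc2a1 was higher, just at the 1.5-fold limit, and Pgk1 was near its day 0 value in its brightest probe set. A match is a run of letters and does not show a binding site.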

How the data were processed

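RNA from 3 arrays, 1 per day, was measured. The deposited values are linear array intensities, 1 per probe set, made with MAS5 per the submitters' processing notes; the sources used here give no version. The arrays share a 2% trimmed mean (498 on each), to which they were rescaled here, and their median signals ran from 83.5 to 92.5. The 64 control probe sets, filled only for day 2, were left out. The constant 55.9, the 40th percentile of all signals, was added before log2, and probe sets with a mean signal of at least that were kept (26925 of 45037, or 59.8%), which left 12717 genes. Probe sets were named from the platform annotation: 34945 name 1 gene, 932 several, and 9160 are unnamed here. Of the former, 34741 matched GRCm38.p6 gene identifiers, and 0 symbols changed; the list symbol Ero1l was read as Ero1a.

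No test was possible with 1 array per day; genes were counted by size. Named genes are the members, up to 4 genes of each list with the largest day 2 difference and any further gene past 2-fold, Pou5f1, and the 3 nearest to the member with the largest difference; other list genes were named as examples after their values were seen. The members and lists were chosen with earlier results of these data known. The scripts (python 3.11.15, pandas 2.3.3) were tested on simulated data. The alternatives varied the constant, the filter on dim probe sets, the scaling and the choice of probe set. Depth does not apply to arrays, and their number limits the precision.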

Additional observations from a re-analysis of the deposited data

How the results depend on the processing

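Over 9 alternatives, 240 differences of the 9 genes were recomputed. None of those past 2-fold changed sign, 12 moved by more than the SD between probe sets, and 4 crossed 2-fold, all through the choice of probe set: Slc2a3 at day 2 to 1.07 (mean over probe sets) or 1.40 (without _x_at, _s_at and _a_at probe sets), Slc2a3 at day 1 to 1.06 under the latter, and Pfkp from day 1 to day 2 to −0.99 as a mean. Pfkl, below 2-fold throughout, turned to 0.26 at day 1 and 0.28 at day 2 without those probe sets, where Ldha has no value. The number of these genes at least 2-fold higher at day 2 was then 2 in place of 1 under both settings, the number higher at day 1 was 1 in place of 0, the number lower from day 1 to day 2 was 1 in place of 2 as a mean, and their medians without those probe sets were 0.065 at day 1 and 0.12 at day 2.

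Of 525 medians and counts, 507 stayed close to the main value. Without the same probe sets the other glycolysis enzymes had a median of 0.60 at day 2 and the trophectoderm markers 0.77 at day 1. With the filter at the 60th percentile of signals, the medians were 0.26 for gluconeogenesis at day 2, and 1.18 at day 1 and 1.46 at day 2 for primitive endoderm markers. With the constant doubled to 112, the trophectoderm median at day 2 was 1.96, and 146 of all genes were at least 2-fold higher at day 1, 157 higher and 184 lower from day 1 to day 2. For day 1 the count of higher genes was 469 with a constant of 27.9, 202 with the stricter filter, and 189 with equal ribosomal protein medians, against 305. That scaling moved the median of all genes from 0.04 to −0.10 at day 1 and from 0.05 to −0.08 at day 2. It gave 189 higher and 457 lower genes at day 1, against 305 and 330, and 520 and 876 at day 2, against 668 and 718. The filters and the choice of probe sets by suffix change the genes counted. A larger constant makes each log2 difference smaller, and the ribosomal scaling multiplies each array by 1 factor. Any other cause of these moves was not tested. No paired analysis was possible because each day has 1 array. Dim signals limit Hk3, Pklr, Pgam2 and Slc2a12, whose day 0 signals lay below the constant. They also limit genes below it on a later day, such as Pou5f1 at day 1 and day 2, and Pdk2 and Ndrg2 at day 2.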
